A study of Ursus arctos with 5 samples.

Results

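The genes described here make, attach and remove ubiquitin or form the proteasome, the protease that degrades ubiquitin-tagged proteins. Members were all transcripts of the deposited grizzly bear (Ursus arctos) muscle table whose gene name starts as a proteasome subunit, assembly factor or regulator (PSM followed by a letter from A to G and a digit), an E1 activating enzyme (UBA and a digit), an E2 conjugating enzyme (UBE2) or a ubiquitin-specific protease (USP and a digit). The name alone chose them, and no measured value entered. They are 153 of 26614 listed transcripts, of which 9093 carry a gene name, and stand for 67 of 4873 named genes. Of the 67 genes, 10 code for the 20S core, 2 for inducible immunoproteasome subunits, 8 for the 19S regulatory particle, 6 for assembly chaperones, activators and an inhibitor, 5 for E1, 16 for E2 and 20 for USP enzymes.

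The study asked which genes accompany the preservation of skeletal muscle in hibernation. Gastrocnemius, a calf muscle, was biopsied in October (active, fed) and in February (hibernating, without food) from a subadult and an adult housed at the same research center. Each bear gave 1 single-end Illumina library in each state, 4 in all, so that both states hold 2 libraries from the same 2 bears. The labels give an age of 10 years to every sample, and the names subadult and adult are those of the paper. Values are RPKM, read numbers corrected for the length of the transcript and the depth of the library, and are given from active to hibernating. Aligned reads numbered 44.7 to 54.2 M (mega) per library, and the value of a member rested on 25 reads or more (median over genes and libraries 1516.5). Each listed transcript is at 1 RPKM or more in every library, and a gene below that level was not analysed here.

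Ubiquitin is activated by an E1, passed to an E2 and joined to a target protein with the help of a ligase, and chains of it mark the target for the 26S proteasome. That machine consists of the 20S core, a barrel of alpha and beta rings that holds the proteolytic sites, and the 19S particle, which binds, unfolds and feeds in the target. USP enzymes take ubiquitin off again. In skeletal muscle this route degrades contractile proteins during fasting and disuse.

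On the deposited RPKM scale most member genes had somewhat more RNA in hibernation in both bears, with median-ratio or upper-quartile scaling fewer than that, and none passed the test. Higher values in both bears were found for 49 of the 67 genes, 73.1% against 48.7% of all named genes, and lower values in both for 5, 7.46% against 16.1%. Taken alone, the adult had 55 members higher in hibernation, 82.1% against 72.1% of all named genes, and the subadult 56, 83.6% against 60.5%. Both hibernating libraries lay above both active ones for 38 genes, 56.7% against 35.8%, and below them for 2 (USP25 and USP9X), 2.99% against 8.11%. The differences were small: 3 genes (PSMD4, UBE2E1 and USP36) were at least 1.5-fold higher in both bears, 4.48% against 5.21%. By limma no gene of the 67 and no transcript of the 153 had an adjusted p under 0.05, as in all 4873 genes (0.0%) and 9093 transcripts (0.0%), and the lowest adjusted p of a member was 0.541. At an unadjusted p under 0.05, limma found 5 member genes higher, 7.46% against 7.84%, and 0 lower against 1.66%. For transcripts the counts were 7 higher, 4.58% against 7.19%, and 0 lower against 1.89%. A score modelled on NOISeq compares the change between states, as a ratio and as an absolute difference, with how far the bears lie apart in the same state. It was 0.8 or more for 2 genes (PSMB9 and PSMD4), 2.99% against 3.98%, and for 2 transcripts, 1.31% against 3.61%. With 2 libraries against 2, the smallest two-sided p of an exact permutation test is 0.333.

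The share of higher values depends on the scale of the whole table. The median log2 change over all named genes, computed from RPKM plus 0.5, was 0.13 (subadult) and 0.17 (adult). Over the 67 members it was 0.30 (subadult) and 0.18 (adult), so that the members stood above all genes by 0.17 in the first bear and by 0.0033 in the second. Scaling by the median ratio of the libraries shifted the changes of log2 RPKM by -0.11 (subadult) and -0.22 (adult), and by less for low values once 0.5 was added. It left 27 members higher in both bears, 40.3% against 30.4% of all genes, and 14 lower, 20.9% against 31.2%. With upper-quartile scaling 26 were higher, 38.8% against 27.9%, and 22 lower, 32.8% against 34.6%. In whole muscle, more RNA per fibre and more cells of a type cannot be told apart.

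In the 20S core nearly all subunits were slightly higher in hibernation. Of its 10 genes, 9 were higher in hibernation in both bears and showed no overlap between the states, and only PSMB7 was lower in both; with median-ratio scaling 6 were higher in both bears and 1 lower. The median log2 change was 0.40 (subadult) and 0.30 (adult), which is 0.27 and 0.13 above the median of all genes. The summed level of the 10 genes was 469 RPKM in the active and 576 in the hibernating subadult, and 468 and 533 RPKM in the adult.

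The constitutive proteolytic subunits that could be followed were PSMB5, which carries the chymotrypsin-like site, and PSMB7, which carries the trypsin-like site. PSMB5 went from 62.8 to 73.6 RPKM (subadult) and from 72.0 to 76.9 RPKM (adult). PSMB7, the most abundant member of all, stood at 128 RPKM in both libraries of the subadult and went from 114 to 107 RPKM in the adult. On the deposited scale the states overlapped for PSMB7 and not for PSMB5. The log2 changes, 0.16 for PSMB5 and -0.044 for PSMB7, were smaller than their standard errors of 0.22 and 0.23.

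Larger differences were seen for PSMB3, a beta ring subunit without a proteolytic site, and PSMA4, a subunit of the alpha ring that gates the barrel. PSMB3 went from 41.7 to 72.6 RPKM (subadult) and from 42.8 to 58.2 RPKM (adult). PSMA4 went from 36.7 to 51.8 RPKM (subadult) and from 34.0 to 50.7 RPKM (adult). For both genes the active libraries of the 2 bears lay close together and the hibernating libraries well above them. By limma the log2 change was 0.62 (SE 0.22, adjusted p = 0.549) for PSMB3 and 0.53 (SE 0.20, adjusted p = 0.549) for PSMA4. The other alpha subunits, PSMA1, PSMA2, PSMA3, PSMA5 and PSMA6, had mean log2 changes between 0.13 (PSMA6) and 0.45 (PSMA3), and the beta subunit PSMB2 one of 0.39. PSMB6, the remaining constitutive proteolytic subunit, was not analysed here.

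**Figure D1:**
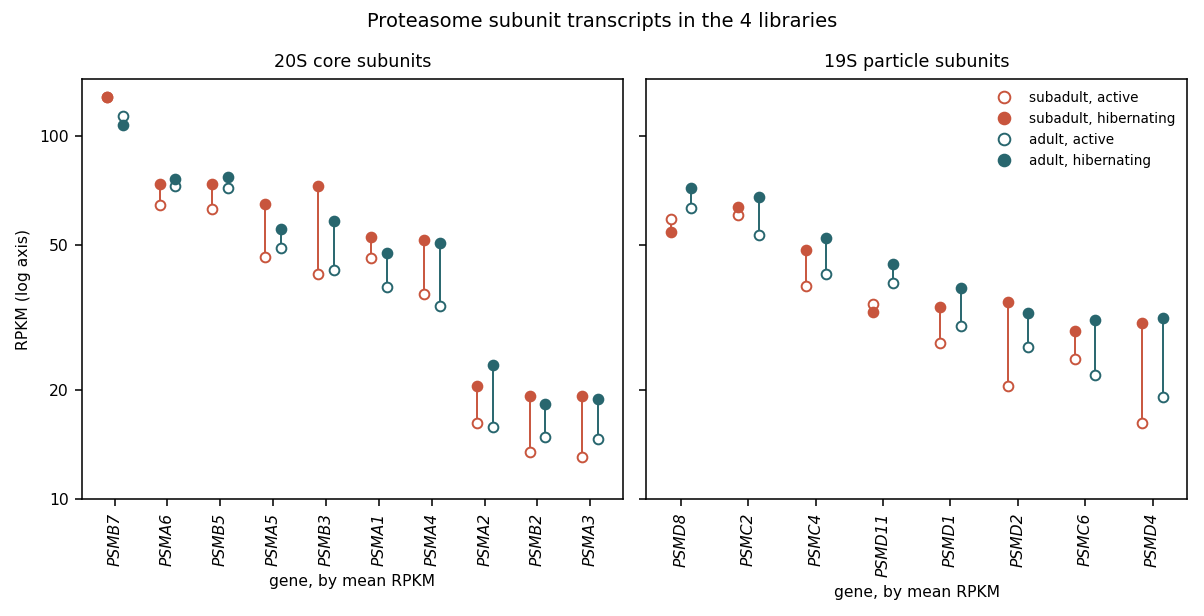
RPKM (log axis) of the 10 genes of the 20S core and the 8 genes of the 19S particle, ordered by mean level, with 1 point per library: open for active, filled for hibernating, red for the subadult and blue-green for the adult. The filled point lies above the open one in both bears for 15 of the 18 genes; PSMB7 is lower in both, with its red points on top of each other at 128 RPKM, and PSMD8 and PSMD11 are lower in the subadult only.

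In the 19S particle, the subunits higher in both bears all belonged to the base. Of 8 genes, 6 were higher in both bears, 75.0% against 48.7% of all named genes, and none was lower in both, against 16.1%. On the deposited scale the same 6 showed no overlap between the states, 75.0% against 35.8%. With median-ratio scaling 5 were higher in both bears, 62.5% against 30.4%, and 2 lower, 25% against 31.2%. The 6 comprise all 3 ATPases measured, PSMC2, PSMC4 and PSMC6, which unfold the target protein, and the base subunits PSMD1, PSMD2 and PSMD4. The 2 lid subunits among these 8 genes, PSMD8 and PSMD11, had log2 changes of -0.12 and -0.072 (subadult) and of 0.18 and 0.18 (adult). The medians over the 8 genes were 0.28 (subadult) and 0.33 (adult), 0.15 and 0.16 above all genes, and the sum went from 281 to 328 RPKM and from 295 to 370 RPKM. The base and the lid were not compared by a test. PSMD14, the deubiquitinase of the lid, was not analysed here.

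PSMD4, a receptor for ubiquitin chains, had the largest mean change of all 67 genes, each taken at its transcript with the most reads. It stood at 16.2 RPKM in the active and 30.5 RPKM in the hibernating subadult. In the adult the values were 19.1 and 31.6 RPKM. Both hibernating values lay more than 1.5-fold above both active ones. By limma the log2 change was 0.80 (SE 0.21, adjusted p = 0.541), and the score of 0.814 was the only one of 0.8 or more among the 20S and 19S genes. With median-ratio or upper-quartile scaling it no longer reached 0.8. All 9 transcripts assigned to PSMD4 were higher in hibernation in mean log2 change, from 0.43 to 0.80. The rank, the score and the 1.5-fold difference in both bears rest on the transcript with the most reads alone. The next largest change among the 9 was 0.58, below that of USP36 (0.67), and the next largest score was 0.68. With median-ratio scaling the changes of PSMD4 were 0.78 (subadult) and 0.49 (adult). PSMD2, a scaffold of the base, went from 20.5 to 34.9 RPKM (subadult) and from 26.2 to 32.5 RPKM (adult), and PSMC6 from 24.4 to 29.1 RPKM and from 22.0 to 31.1 RPKM.

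Among the 18 genes of the core and the 19S particle, the abundant subunits differed less between the states than the scarce ones. Spearman's rho between mean RPKM and mean log2 change was -0.70 across these genes, against 0.10 across all 67 members and 0.12 across all 4873 genes. Genes are not independent replicates, all points come from the same 4 libraries, and the value is a description. The 5 most abundant genes, PSMB7, PSMA6, PSMB5, PSMD8 and PSMC2, had log2 changes from -0.044 to 0.21, while the 5 scarcest, PSMA3, PSMB2, PSMA2, PSMD4 and PSMC6, had changes from 0.37 to 0.80.

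**Figure D2:**
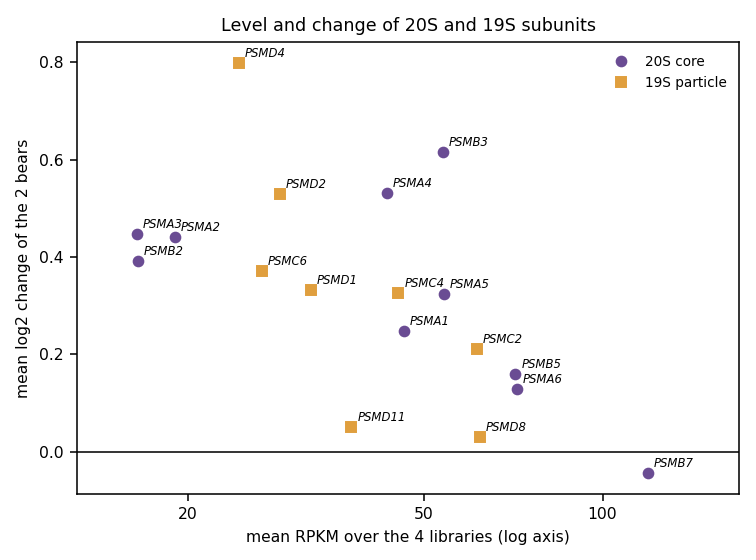
Mean RPKM over the 4 libraries (log axis) against the mean log2 change of the 2 bears (hibernating minus active, RPKM plus 0.5) for 10 genes of the 20S core (circles) and 8 of the 19S particle (squares). The points run from PSMD4, at 24.4 RPKM and a change of 0.80, down to PSMB7, at 119 RPKM and -0.044.

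The inducible subunits were present at unequal levels in the 2 bears. PSMB8 and PSMB9 replace PSMB5 and PSMB6 in the immunoproteasome, which interferon induces and which shapes peptides for antigen presentation. PSMB9 stood at 1.29 RPKM in the active and 1.45 RPKM in the hibernating subadult, and at 14.8 and 4.28 RPKM in the adult. PSMB8 stood at 3.08 and 3.00 RPKM in the subadult and at 27.4 and 17.9 RPKM in the adult. The adult thus lay above the subadult in both states, 11.5-fold in activity and 2.96-fold in hibernation for PSMB9, and 8.93-fold and 5.96-fold for PSMB8.

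These are the 2 members at least 2-fold higher in the adult in both states, 2.99% against 0.41% of all named genes, and no member was at least 2-fold lower in the adult in both states, against 0.985%. Within the adult both were lower in hibernation, with log2 changes of -1.68 for PSMB9 and -0.60 for PSMB8, while the subadult showed 0.12 and -0.030. The active and hibernating values therefore overlapped across bears. By limma the mean log2 change was -0.78 for PSMB9 (SE 1.01, adjusted p = 0.786) and -0.32 for PSMB8 (SE 1.13, adjusted p = 0.923), so that the spread between the bears exceeded the change. The score of PSMB9 was 0.888, and without the active library of the adult its log2 change was 0.77. Counting error was small beside these differences: the exact Poisson 95% interval of PSMB9 ran from 13.7 to 15.9 RPKM (700 reads) in the active adult and from 3.77 to 4.85 RPKM (246 reads) in the hibernating adult. It covers counting only. PSMB10, the remaining inducible subunit, was not analysed here.

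Genes of interferon signalling and antigen presentation were followed as a list of 20, of which 8 were found. IRF1, a transcription factor induced by interferon, had 3.18 and 3.33 RPKM in the subadult and 13.7 and 3.25 RPKM in the adult. IRF1 was thus highest in the active library of the adult, as were PSMB8, PSMB9 and the E1 UBA7. B2M, the light chain of the class I antigen-presenting complex, was 306 and 539 RPKM in the subadult and 771 and 776 RPKM in the adult. The peptide transporter subunits TAP1 and TAP2 were also highest there, but by little, with TAP1 at 2.31 and 1.24 RPKM in the subadult and 2.84 and 2.77 RPKM in the adult. Of the 8 genes, 1 was higher and 3 were lower in both bears, beside 48.7% and 16.1% of all named genes. The median log2 change was 0.18 (subadult) and -0.29 (adult). Of 18 immune cell markers 1 was found, CD68 of macrophages, with values of 3.94 and 6.41 RPKM in the subadult and 3.28 and 7.12 RPKM in the adult, which was lowest in the library where PSMB9 was highest. The difference between the bears rests on 1 library per bear and state and was not tested.

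**Figure D3:**
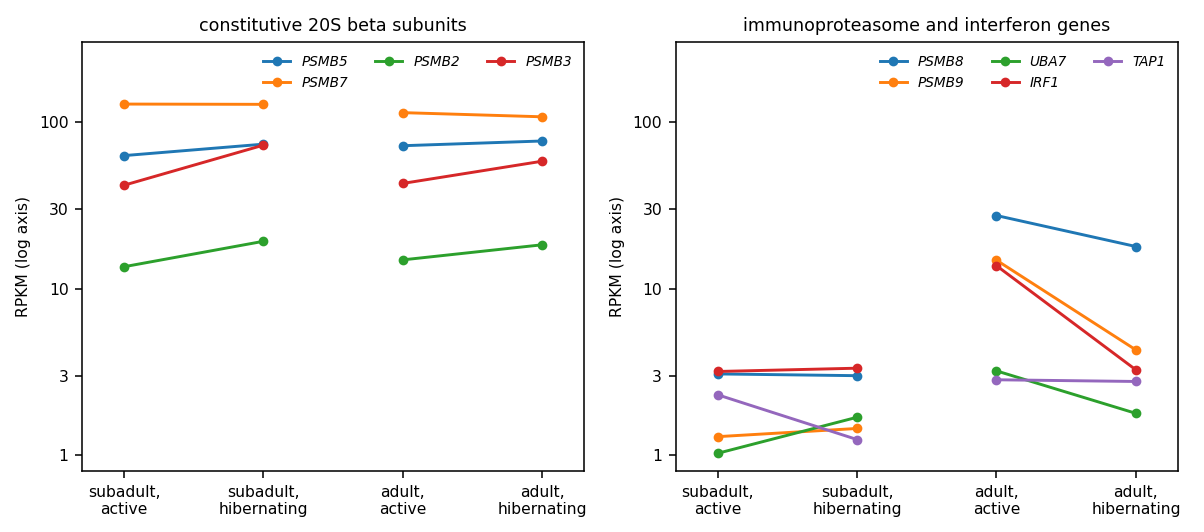
RPKM (log axis) in the 4 libraries, active and hibernating joined by a line within each bear, for constitutive beta subunits of the 20S core (left) and for inducible subunits and interferon genes (right). PSMB8, PSMB9 and IRF1 are highest in the active adult, at 27.4, 14.8 and 13.7 RPKM, while PSMB5 and PSMB7 differ little between the bears.

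Assembly chaperones, activators and the inhibitor had no common direction. Of 6 genes, 3 were higher in both bears, 3 went in opposite directions and none was lower in both; with median-ratio scaling the counts were 2 higher and 3 lower. The medians of 0.090 (subadult) and 0.11 (adult) lay below those of all genes. PSMD5, a chaperone of the 19S base, went from 2.34 to 4.17 RPKM (subadult) and from 2.09 to 2.70 RPKM (adult). The activator subunit PSME1 went from 42.4 to 44.6 RPKM (subadult) and from 51.2 to 48.8 RPKM (adult). The inhibitor PSMF1 went from 30.9 to 33.3 RPKM and from 49.7 to 47.1 RPKM. Both were near the level of the core subunits and had mean log2 changes of 0.0011 and 0.015. The activator PSME4 stood at 5.31 and 5.44 RPKM in the subadult and at 3.32 and 4.27 RPKM in the adult.

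Of the 5 E1 genes, UBA1, UBA2 and UBA3 were higher in both bears and UBA7 went in opposite directions, under each scaling tried. The 3 higher are 60.0% of the class, against 48.7% of all named genes as deposited, 30.4% with median-ratio and 27.9% with upper-quartile scaling. On the deposited scale the states did not overlap for UBA1, UBA2 and UBA3, 60.0% of the E1 genes against 35.8% of all named genes. With median-ratio scaling they did overlap for UBA2 and UBA3, and with upper-quartile scaling also for UBA1. UBA1, the main E1 of ubiquitin, stood at 72.7 and 90.6 RPKM in the subadult and at 78.3 and 95.5 RPKM in the adult. Its 17 transcripts were all higher in hibernation, by 0.13 to 0.30 in mean log2 change, which compares with a median of 0.15 over all genes. The RPKM given for UBA1 are those of its transcript with the most reads, of 827 bases. Its other transcripts stood at 1.89 to 4.12 RPKM. Their log2 changes were 0.21 to 0.28 (subadult) and 0.058 to 0.083 (adult), against medians of all genes of 0.13 and 0.17. UBA3, which with a partner activates NEDD8, stood at 6.39 and 8.45 RPKM in the subadult and at 4.96 and 6.82 RPKM in the adult. UBA7, the E1 of the interferon-induced modifier ISG15, stood at 1.03 and 1.69 RPKM in the subadult and at 3.21 and 1.78 RPKM in the adult.

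Of the 16 E2 genes, 13 were higher in both bears, 81.2% against 48.7% of all named genes. None was lower in both, against 16.1%. With median-ratio scaling 3 were higher, 18.8% against 30.4%, and 3 lower, 18.8% against 31.2%. With upper-quartile scaling 3 were higher, 18.8% against 27.9%, and 7 lower, 43.8% against 34.6%. The share higher in both bears thus went from above that of all named genes to below it. Their median was 0.24 in the subadult, 0.11 above all genes, and 0.14 in the adult, 0.038 below all genes. The states did not overlap for 8 of the 16. UBE2E1, an E2 that works with many ligases, stood at 6.63 and 10.3 RPKM in the subadult and at 6.05 and 9.60 RPKM in the adult. It was the E2 with the largest mean log2 change, 0.61 (SE 0.21, adjusted p = 0.546 by limma), with changes of nearly the same size in the 2 bears. UBE2N, which builds chains linked through lysine 63 together with UBE2V1 or UBE2V2, followed with 9.62 and 12.1 RPKM in the subadult and 7.83 and 12.1 RPKM in the adult.

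The mean log2 changes of its partners were 0.18 for UBE2V1 and 0.056 for UBE2V2, against 0.45 for UBE2N. UBE2V1 stood at 25.5 and 32.5 RPKM in the subadult and at 29.2 and 29.6 RPKM in the adult. The UBE2D enzymes, general E2 partners of many ligases, had log2 changes from 0.16 to 0.35. UBE2D1 stood at 13.6 and 19.1 RPKM in the subadult and at 15.4 and 17.8 RPKM in the adult, and UBE2D2 and UBE2D3 were also higher in both bears. UBE2A, the close relative of the atrophy-associated UBE2B, stood at 10.2 and 11.1 RPKM in the subadult and at 8.90 and 9.71 RPKM in the adult, less than the difference between the bears. UBE2G1, an E2 of protein degradation from the endoplasmic reticulum, stood at 8.96 and 11.2 RPKM and at 10.0 and 12.4 RPKM. UBE2M, the E2 of NEDD8, was at 27.6 RPKM in the active subadult and at 38.6 to 41.7 RPKM in the other 3 libraries. How reads shared by near-identical relatives such as the UBE2D genes were assigned is not given in the sources used here, and their separate values are uncertain to that extent. UBE2B was not analysed here.

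Of the 20 USP genes, 15 were higher in both bears, 75.0% against 48.7% of all named genes. Lower in both were 2 (USP25 and USP9X), 10.0% against 16.1%. With median-ratio scaling 8 were higher, 40% against 30.4%, and 3 lower, 15% against 31.2%. The medians were 0.32 (subadult) and 0.12 (adult), 0.19 above and 0.053 below all genes. By the transcript with the most reads, USP13 was the most abundant. That transcript stood at 72.8 and 103 RPKM in the subadult and at 88.1 and 96.7 RPKM in the adult. The other USP13 transcript stood at 2.97 and 3.88 RPKM and at 3.16 and 4.26 RPKM. The median USP gene had 5.25 RPKM over the 4 libraries.

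USP36, a deubiquitinase of the nucleolus, had the largest mean change of this class. It stood at 2.51 and 4.72 RPKM in the subadult and at 3.28 and 5.02 RPKM in the adult, with no overlap and a log2 change of 0.67 (SE 0.24, adjusted p = 0.549 by limma). USP11 went from 22.3 to 41.6 RPKM (subadult) and from 32.2 to 37.9 RPKM (adult), and USP4 from 8.20 to 13.5 RPKM and from 13.4 to 16.5 RPKM. For these 2 genes the difference was larger in the subadult, whose active library was the lowest of the 4. USP19, linked to muscle wasting, was scarce at 1.56 and 1.90 RPKM in the subadult and 1.85 and 2.02 RPKM in the adult, and its 12 transcripts had mean log2 changes from 0.15 to 0.21. USP14 and USP7 were not analysed here.

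USP9X, a large deubiquitinase encoded on the X chromosome in mammals, stood at 17.2 and 16.1 RPKM in the subadult and at 16.1 and 12.4 RPKM in the adult, so that the hibernating subadult lay only just below the active adult. USP25 stood at 17.0 and 15.4 RPKM and at 17.8 and 16.5 RPKM. USP32 and USP38 were higher in the hibernating subadult, by 0.23 and 0.36 on the log2 scale, and lower in the hibernating adult, with -0.44 and -0.37. USP54 went from 6.78 to 2.62 RPKM (subadult) and from 3.91 to 4.03 RPKM (adult). Its 2 transcripts disagree: the shorter, with fewer reads, went from 1.44 to 3.23 RPKM and from 3.11 to 4.14 RPKM.

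**Figure D4:**
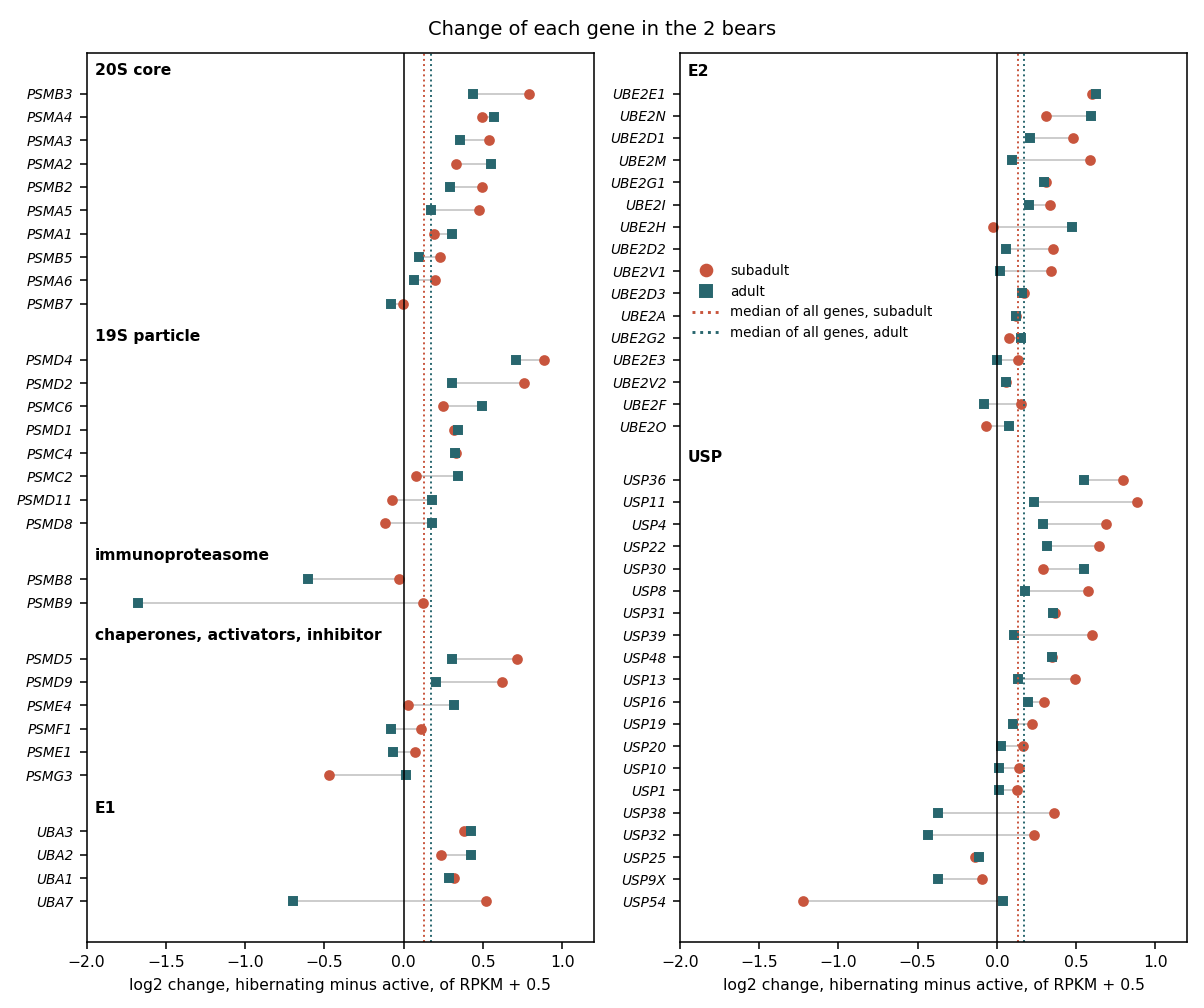
Log2 change (hibernating minus active, RPKM plus 0.5) of 66 of the 67 genes in the subadult (circles) and the adult (squares), grouped by class, with the bears joined by a line and the median of all named genes dotted (0.13 in the subadult, 0.17 in the adult). Both points lie to the right of 0 for 49 genes; PSMB9 and UBA7 are higher in hibernation in the subadult and lower in the adult, and USP54 shows the opposite.

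Of the 67 genes, 31 had 2 or more transcripts, 117 in all. All transcripts of a gene had a higher mean log2 value in hibernation for 24 of them and a lower one for 3, and the sign was mixed for 4 (PSME4, UBE2F, USP1 and USP54). Transcripts of a gene can share sequence and reads, and their agreement is no independent check. The changes of the 2 bears had a Pearson r of 0.37 across the 67 genes and of 0.32 across all 4873 genes, given as a description of 1 library per point and state.

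Other genes of the pathway were followed in lists. Their counts stand beside 48.7% of all named genes higher in both bears and 16.1% lower, and were not tested. Of 12 genes for ubiquitin and related modifiers 4 were found, 3 higher in both bears and none lower. RPS27A, which encodes ubiquitin fused to a ribosomal protein, stood at 616 and 1139 RPKM in the subadult and at 587 and 768 RPKM in the adult, and SUMO3 was also higher in both. UBB, a polyubiquitin gene, was not analysed here. Of 26 deubiquitinases of other families 13 were found, 8 higher in both bears and 1 lower. UCHL1, known from neurons and also present in muscle, stood at 14.0 and 35.4 RPKM in the subadult and at 20.4 and 36.1 RPKM in the adult, a log2 change of 1.06 (SE 0.25, adjusted p = 0.541 by limma) and larger than that of any of the 67 members. UCHL5, a deubiquitinase bound to the 19S particle, stood at 5.51 and 8.28 RPKM and at 6.65 and 7.65 RPKM.

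Of 23 cofactors of the segregase VCP and shuttle factors, which carry ubiquitinated proteins to the proteasome, 9 were found, 4 higher and 3 lower in both bears. ZFAND5, which binds ubiquitin and stimulates the 26S proteasome, stood at 20.7 and 4.76 RPKM in the subadult and at 13.6 and 8.78 RPKM in the adult. It was thus lower in both bears, with a log2 change of -1.31 (SE 0.36, adjusted p = 0.541 by limma). UFD1L stood at 11.1 and 22.9 RPKM in the subadult and at 15.5 and 16.7 RPKM in the adult. Of 11 proteasome partners 4 were found, 2 higher in both bears (PAAF1 and TXNL1) and 2 of opposite direction. NFE2L1, a transcription factor of proteasome genes, was among the latter, with 21.8 and 18.7 RPKM in the subadult and 23.7 and 25.9 RPKM in the adult. Of a list of 6 genes for atrophy ligases, metallothioneins and UBE2B, TRIM63, which encodes the ligase MuRF1, was the only one found. It stood at 71.2 and 43.3 RPKM in the subadult and at 45.1 and 51.0 RPKM in the adult, without a common direction. VCP and FBXO32 were not analysed here.

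Muscle genes were abundant in each library: 6 of 14 fibre markers were found and summed to 13644 to 21603 RPKM per library, with MYH2 at 2755 RPKM or more in each. Other cell types moved between the libraries as well. Summed RPKM ranged from 160 to 337 for connective tissue (4 of 9 markers found), from 21.9 to 37.1 for endothelium (4 of 9) and from 95.6 to 191 for fat cells (2 of 8). Each sum was highest in the active subadult, but the markers within a list disagreed, and none of 5 blood markers was found. In endothelium, PECAM1 and FLT1 were highest in the active subadult, and TIE1 and EMCN in the hibernating subadult. Of the fat cell markers, LPL was highest in the active subadult (120 RPKM) and PLIN4 in the hibernating adult (105 RPKM). In connective tissue, COL1A1 was 193 RPKM in the active subadult and 6.79 to 10.95 RPKM in the other 3 libraries. FBN1 was also highest in the active subadult (24.9 RPKM), while COL3A1 (116 RPKM) and COL1A2 (2.59 RPKM) were at their lowest in it. The active subadult is also the lowest of the 4 libraries for the members PSMD2, USP11, USP4 and UBE2M. The part of other cell types in these differences was not tested.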

How the data were processed

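RNA from gastrocnemius of 2 grizzly bears, active and hibernating, was sequenced as 4 single-end libraries. The authors assembled transcripts de novo from 454 and paired-end reads (Newbler, SOAPdenovo), named them by BLAST to human proteins, aligned the single-end reads with SOAP2 and deposited RPKM values per transcript and library, with the transcript length. No genome build applies, and whether the single-end cDNA had been nuclease-normalized is not given in the sources used here. Columns name bear and month, and the age class came from the supplementary table with the same values (150 of 150 member transcripts compared). No column belonged to other samples (0), and the pooled and paired-end samples were not analysed here. RPKM times length fell on whole multiples of a step (within 0.1) for 91.1% to 99.4% of low values, which gave the aligned reads. Intervals from these reads cover counting error only.

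The 2 states were compared on log2 of the deposited RPKM plus 0.5, using R 4.3.3 and limma 3.58.1 with a trended prior and Benjamini-Hochberg adjustment over 9093 named transcripts. The script was tested on simulated data. A gene was represented by its transcript with the most reads (mean RPKM multiplied by length). The score took the differences between the bears over all 26614 transcripts as noise. Libraries of 1 bear are from 1 animal and are paired by it. Across named transcripts, how far the bears lay apart in hibernation correlated with the same in activity (Pearson r = 0.356), and a fit with the animal as replicate block was an alternative. In the fit reported the pairing by animal was not used. Its p-values set the change against the spread between the 2 bears within a state. By the prior, that spread was drawn towards a value shared by named transcripts of similar level.

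Named genes were fixed subunits and enzymes, the largest rise and fall per class and the largest changes and differences between bears over all members, and in the other lists the 2 largest changes of common direction. Further genes were added for their levels after their values were seen (IRF1, TAP1, CD68, COL1A1 and USP13, for example). Some genes are not reported here, though the counts over classes include them. Members and lists were chosen with earlier results of these data known. Alternatives were the pseudocount (0.1 and 1), scaling by median ratio and upper quartile, a mean RPKM of at least 5, the prior, the block, the transcript per gene, the thresholds, and each library or bear left out. Python 3.11.15, pandas 2.3.3, numpy 2.4.6, scipy 1.17.1 and matplotlib 3.10.9 were used.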

Additional observations from a re-analysis of the deposited data

Results flagged for a closer look

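Of the 34 member genes named by the rule, 7 had log2 changes of opposite sign in the 2 bears, subadult first: PSMB9 0.12 and -1.68, PSME1 0.072 and -0.070, PSMF1 0.11 and -0.077, UBA7 0.52 and -0.70, USP32 0.23 and -0.44, USP38 0.36 and -0.37, and USP54 -1.22 and 0.038. With 1 library per bear and state, none of these differences was tested.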

How the results depend on the processing

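No setting gave a member transcript with an adjusted p under 0.05 by limma (0 in the fit reported and in all alternatives, the replicate block by animal included, where the lowest adjusted p was 0.340). At an unadjusted p under 0.05, 7 transcripts were higher and 0 lower in the fit reported, 1 and 0 with either scaling, 11 and 1 with the block, and 1 to 19 and 0 to 4 with a library left out. Without the active adult the 19 and 1 were found, and without the active subadult 1 and 3. With the block, no member passed the adjusted threshold either.

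Scaling moved most of the counts. Median-ratio and upper-quartile scaling gave 27 and 26 genes higher in both bears (49 as reported), 14 and 22 lower (5), 0 and 0 at least 1.5-fold higher (3), and 1 and 1 transcript, of PSMB9, with a score of 0.8 or more (2, PSMD4 being lost). A score threshold of 0.9 left 0 transcripts. A lower and a higher fold threshold gave 16 and 0 genes higher in both bears. For these thresholds, and for the unadjusted p in the alternatives, the shares of all named genes or transcripts are not given here. Those counts are therefore no result about the members. Median log2 changes with median-ratio and upper-quartile scaling were 0.084 and 0.046 for all members (0.25 as reported), 0.20 and 0.16 for the 20S core (0.36), 0.17 and 0.13 for the 19S particle (0.33), 0.13 and 0.096 for E1 (0.30), 0.033 and -0.0041 for E2 (0.19), and 0.14 and 0.10 for USP (0.28). In the adult and the subadult alone, an alternative chosen after seeing the data, 55 and 56 genes were higher and 12 and 11 lower. Beside these medians, the 19S median was 0.27 with the mean over transcripts, and that of E1 was 0.33 with a mean RPKM of at least 5, 0.13 with the longest transcript and 0.17 with the mean over transcripts. With 1 bear left out the medians ranged from 0.18 to 0.30 (all members), 0.30 to 0.40 (20S), 0.28 to 0.33 (19S), 0.28 to 0.31 (E1), 0.14 to 0.24 (E2) and 0.12 to 0.32 (USP).

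Of 34 named genes, 7 changed sign with a scaling: PSMB5 (-0.0049 and -0.043 with median-ratio and upper-quartile scaling), PSME1 (-0.16 and -0.20), PSMF1 (-0.15 and -0.19), UBE2A (-0.036 and -0.073), and with the upper quartile only PSME4 (-0.0087), UBE2D3 (-0.024) and UBE2V1 (-0.019). With a library left out, 9 changed sign, with ranges for PSMB7 from -0.17 to 0.080, PSMB8 from -1.80 to 1.17, PSMB9 from -2.33 to 0.77, PSME1 from -0.13 to 0.14, PSME4 from -0.13 to 0.48, PSMF1 from -0.32 to 0.35, UBA7 from -0.73 to 0.55, USP32 from -0.53 to 0.32 and USP38 from -0.45 to 0.43. With fewer than 2 libraries in a state, the lone library is assumed to vary like the others.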
